A study of Mus musculus with 6 samples.

Results

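Cells exposed to the metabolite R-2-hydroxyglutarate (R-2HG) were compared with cells that carried wild-type IDH1, by reduced representation bisulfite sequencing (RRBS) of 2 libraries in each group. The members are all 750 windows of the authors' deposited table of this comparison, out of 2135 windows in any of the 3 comparisons of the series. They were taken from 754 rows, and windows with the same chromosome and start were counted once. Each window is 500 bp long, is placed on mouse build mm9 and carries 1 difference in methylation between the groups, in percentage points. It also carries the authors' p and q, the nearest transcription start site and the distance to it. Its differences are printed here with their sign reversed, as R-2HG minus IDH1wt, so that a gain stands in the table as a negative number and a loss as a positive one. Those of the other 2 tables keep their sign. Of the windows, 510 were higher and 240 lower in R-2HG cells, near 452 genes.

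Both groups were bone marrow cells of C57BL6 mice immortalised with HoxA9, a homeobox factor that keeps myeloid progenitors dividing. They were transplanted into irradiated mice, and after 4 weeks GFP+ cells were sorted from the marrow. The IDH1wt cells carried pSF91-IDH1wt-IRES-EGFP, a retroviral vector that expresses wild-type IDH1. The R-2HG cells carried the empty vector, and for 4 weeks their recipients were given 1 mg of R-2HG each day. Cells of the third group, IDH1mut, carried pSF91-IDH1mut-IRES-GFP, and the name of the deposited comparison gives the mutation as R132C. Treatment and vector differ together between R-2HG and IDH1wt, so they cannot be told apart. Nothing in the labels tells whether both libraries of a group are from different mice. No value per library stands in the table, so the spread between libraries, read depth and coverage of each window are unknown here.

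In mammals most DNA methylation sits on cytosines of CpG pairs, and CpG-rich start sites are usually unmethylated. DNMT enzymes write the mark. TET enzymes, which need 2-oxoglutarate, oxidise it as the first step of its removal, and R-2HG resembles 2-oxoglutarate and can block such enzymes. In blood progenitors, methylation is laid down and removed at enhancers and promoters as the cells commit to a lineage.

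The promoters at which a listed window lay directly over the start site show what RRBS reads. The assay cuts DNA with MspI at CCGG and sequences the CpGs beside the cuts. The 250 bases upstream of the start are printed for the 4 largest gains and the 3 largest losses among such genes with 1 promoter entry, from RefSeq, 5′ to 3′, with every CpG in capitals. The build is GRCm38.p6, so these positions are not those of the mm9 windows, and the RefSeq start can differ from the start that the authors used.
Lhcgr (GRCm38.p6, chr17:88792015-88792264, minus strand): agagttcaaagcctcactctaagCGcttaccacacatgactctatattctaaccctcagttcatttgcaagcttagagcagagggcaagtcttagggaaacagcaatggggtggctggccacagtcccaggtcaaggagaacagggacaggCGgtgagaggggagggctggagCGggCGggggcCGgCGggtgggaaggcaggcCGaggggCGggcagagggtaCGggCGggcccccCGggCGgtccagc
Alox5 (GRCm38.p6, chr6:116461179-116461428, minus strand): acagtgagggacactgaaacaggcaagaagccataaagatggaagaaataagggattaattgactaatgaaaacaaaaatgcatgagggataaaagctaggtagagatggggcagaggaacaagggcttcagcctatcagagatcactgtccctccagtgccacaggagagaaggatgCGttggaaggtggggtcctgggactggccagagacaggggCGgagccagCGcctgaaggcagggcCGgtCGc
Hoxa6 (GRCm38.p6, chr6:52208673-52208922, minus strand): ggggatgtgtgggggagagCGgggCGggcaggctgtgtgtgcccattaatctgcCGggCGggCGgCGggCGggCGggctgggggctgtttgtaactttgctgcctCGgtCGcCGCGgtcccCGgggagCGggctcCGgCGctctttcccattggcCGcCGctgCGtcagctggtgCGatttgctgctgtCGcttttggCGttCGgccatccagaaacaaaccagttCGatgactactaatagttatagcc
Gpx7 (GRCm38.p6, chr4:108406714-108406963, minus strand): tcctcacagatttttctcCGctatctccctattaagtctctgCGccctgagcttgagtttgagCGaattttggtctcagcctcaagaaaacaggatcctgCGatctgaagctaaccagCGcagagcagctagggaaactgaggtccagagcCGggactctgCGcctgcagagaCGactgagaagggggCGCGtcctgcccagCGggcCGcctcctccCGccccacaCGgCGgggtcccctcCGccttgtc
Cox7c (GRCm38.p6, chr13:86046796-86047045, minus strand): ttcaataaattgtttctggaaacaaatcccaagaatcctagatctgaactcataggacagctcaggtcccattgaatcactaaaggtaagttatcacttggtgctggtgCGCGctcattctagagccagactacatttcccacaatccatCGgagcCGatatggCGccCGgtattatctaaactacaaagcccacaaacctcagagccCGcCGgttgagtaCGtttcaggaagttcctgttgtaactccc
Scin (GRCm38.p6, chr12:40134229-40134478, minus strand): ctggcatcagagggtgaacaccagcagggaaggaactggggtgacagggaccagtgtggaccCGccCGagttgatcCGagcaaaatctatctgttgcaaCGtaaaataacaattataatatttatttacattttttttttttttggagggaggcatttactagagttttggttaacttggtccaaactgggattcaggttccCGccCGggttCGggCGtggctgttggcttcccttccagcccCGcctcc
Neurod2 (GRCm38.p6, chr11:98329646-98329895, minus strand): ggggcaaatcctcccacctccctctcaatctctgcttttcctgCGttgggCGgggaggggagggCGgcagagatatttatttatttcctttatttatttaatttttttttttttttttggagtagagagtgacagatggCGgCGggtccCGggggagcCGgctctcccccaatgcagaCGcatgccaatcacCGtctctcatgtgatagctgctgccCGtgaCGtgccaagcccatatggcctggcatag
Lhcgr, Alox5, Hoxa6 and Gpx7 gained methylation at the start and held 12, 5, 24 and 16 CpGs in these bases. Cox7c, Scin and Neurod2 lost it and held 9, 9 and 11. Over 32851 promoter sequences the median was 6 CpGs (quartiles 2 and 16), and 47.1% held CCGG, whose letters read the same on both strands. Of 15 genes with a window over the start site and 1 promoter entry, 14 held CCGG. The 11 with gains held 2 to 28 CpGs (median 12) and the 4 with losses 7 to 11 (median 9). The 2 ranges overlap.

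More windows gained than lost methylation in R-2HG cells: the share of gains was 68.0% of the 750 windows and that of losses 32.0%. Gains ran from 25.02 to 62.0 points with a median of 29.4 per the authors' deposited table, and losses from -25.05 to -61.9 with a median of -28.6. Only windows past the authors' thresholds are in the table, the smallest absolute difference being 25.02 points and the largest q 0.00995, so the share of tested windows that passed is unknown. Many windows lay close to that limit: 120 were under 26 points, 79 gains and 41 losses. The p in the authors' deposited table was 0 for 76.5% of the gains and for 52.1% of the losses. Of the windows of 40 points or more, 9 of 50 gains and 15 of 25 losses had a p above 0. Counting only windows with a p of 0, the share of gains was 75.7%. The sign is not stated in the table and was set from windows that several tables share. It fixes the direction of this comparison against the other 2, but not of all 3 together. Gain means higher in R-2HG cells throughout, and under the opposite reading all directions turn.

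The 750 windows hold fewer separate measurements than their number. Windows start 250 bp apart and overlap, and in 100 of 274 neighbouring pairs both windows had the same difference to 6 decimals. Neighbours that differed did so by a median of 1.41 points, and no neighbouring pair had opposite signs. Joined where starts lay within 1000 bp, the windows made 470 regions, 310 gained and 160 lost, and none mixed both directions. Of these regions 234 were a single window and 206 were pairs. Of the 30 regions with 3 or more windows, 25 were gained and 5 lost.

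Gains outnumbered losses in each class of distance from the start site. Promoter windows, from -2000 to 500 bp, numbered 100, with 68.0% gains. Windows up to 50000 bp downstream numbered 234, with 64.1% gains, and those up to 50000 bp upstream 182, with 60.4%. The 234 distal windows, over 50000 bp away, had 77.8% gains. Median gains were 28.8, 29.0, 27.96 and 31.0 points in promoter, downstream, upstream and distal windows, and median losses -31.8, -28.3, -29.8 and -27.8. The 4 shares were not tested against each other. Among windows of 30 points or more, gains made up 51.4% upstream and 85.5% of the distal windows.

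**Figure D1:**
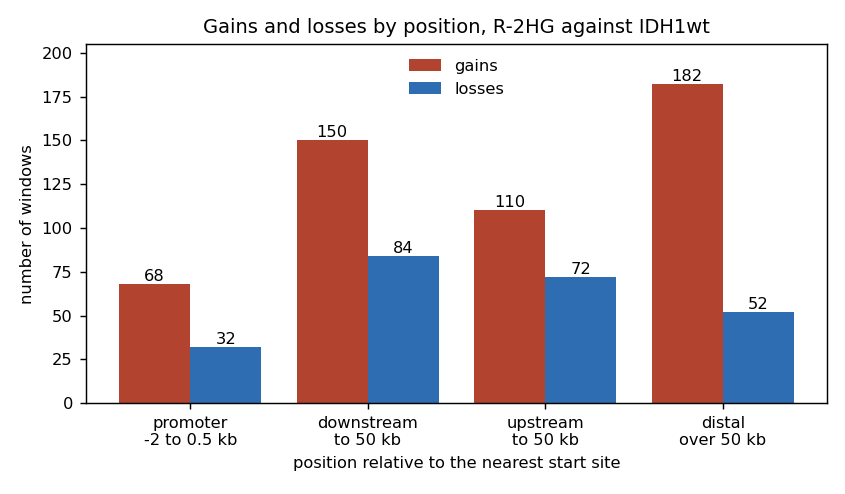
Number of windows with a gain (red) and a loss (blue) in R-2HG cells in 4 classes of distance from the nearest start site. Distal windows had 182 gains and 52 losses, promoter windows 68 and 32.

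**Figure D2:**
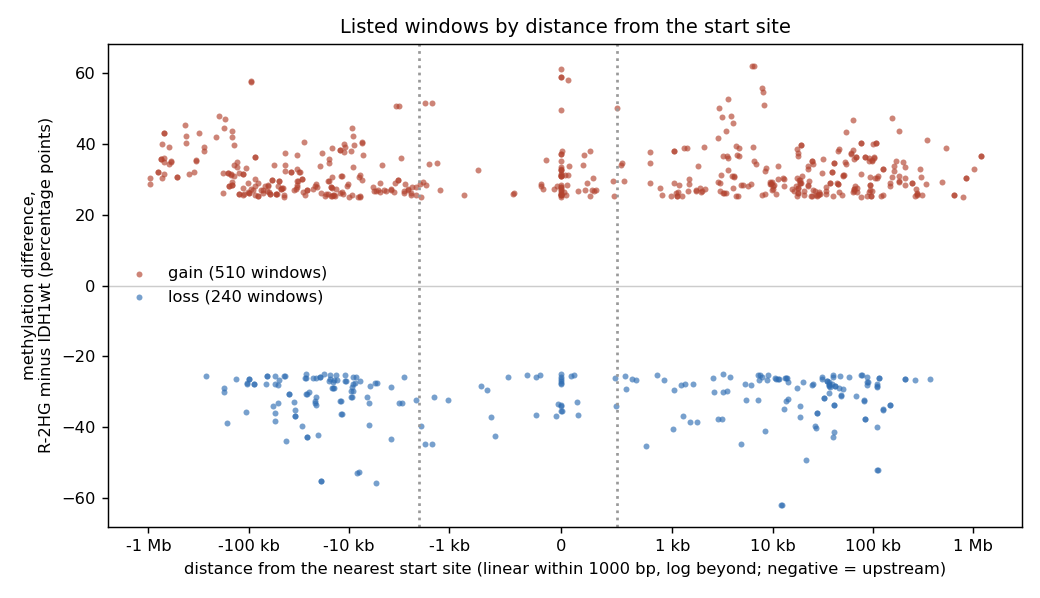
Methylation difference, R-2HG minus IDH1wt, of each of the 750 windows (vertical axis, percentage points) against distance from the nearest start site (horizontal axis, linear within 1 kb and logarithmic beyond). Dotted lines mark the promoter limits of -2000 and 500 bp. The empty band around 0 holds the windows that did not reach the authors' limit. Beyond 250 kb, a limit set after seeing the values, 49 of the 52 points are gains, beside 68.0% of all windows. These 52 windows overlap and made 35 regions.

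Among the 15 genes with most windows were several of development, each with a run of neighbouring windows. Zfp503, a zinc finger corepressor of embryonic patterning, had 9 gains in 2 regions downstream of its start. In the authors' deposited table the nearer one ran from 3574 to 4574 bp with 32.7 to 47.8 points (chromosome 14, 22803751 to 22805250). The farther one ran from 6074 to 6824 bp with 28.7 to 39.0 points (22801501 to 22802750). At Hoxc6, a homeobox gene of the trunk, 6 losses spread from the start to 1760 bp (chromosome 15, 102839751 to 102842250). In the authors' deposited table they were -35.5 points in each of the 2 windows at the start, -45.3 and -40.5 at 760 and 1010 bp, and -38.6 at 1510 and 1760 bp. The loss was thus smallest at the start itself. Hoxb3, a homeobox gene of the hindbrain and of blood progenitors, gained in 5 windows upstream (chromosome 11, 96201751 to 96203750). Its differences in the authors' deposited table were 26.1, 27.2 and 27.9 points at -2833, -2583 and -2333 bp and 34.2 and 34.5 points at -1583 and -1333 bp, higher on the side of the start.

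Dll4, a Notch ligand of vessels and of early T cells, had 4 gains from -3520 to -2770 bp. In the authors' deposited table they were 29.1, 29.9, 36.0 and 28.8 points (chromosome 2, 119147501 to 119148750), with the highest value inside the run. Sema4b, a membrane semaphorin that guides axons, gained across its start (chromosome 7, 87331251 to 87332500), with 33.4 and 31.0 points over the start and 26.5 and 26.9 points at 26 and 276 bp per the authors' deposited table. Mn1, a transcriptional coactivator fused to Etv6 in some myeloid leukaemias, had 4 gains in 2 regions downstream of its start (chromosome 5, 111847501 to 111849750). The differences in the authors' deposited table were 26.8 and 29.4 points at 317 and 567 bp and 33.6 and 39.1 points at 1817 and 2067 bp. Mir671, a microRNA gene, had 5 gains around its start (chromosome 5, 24097001 to 24098500), which in the authors' deposited table were 25.7, 28.6, 30.9, 32.6 and 33.8 points from -432 to 71 bp. These runs differ in shape: Mir671 climbs from upstream across its start, Mn1 is higher farther downstream of its start, Sema4b is highest at its start, and Dll4 peaks within the run.

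**Figure D3:**
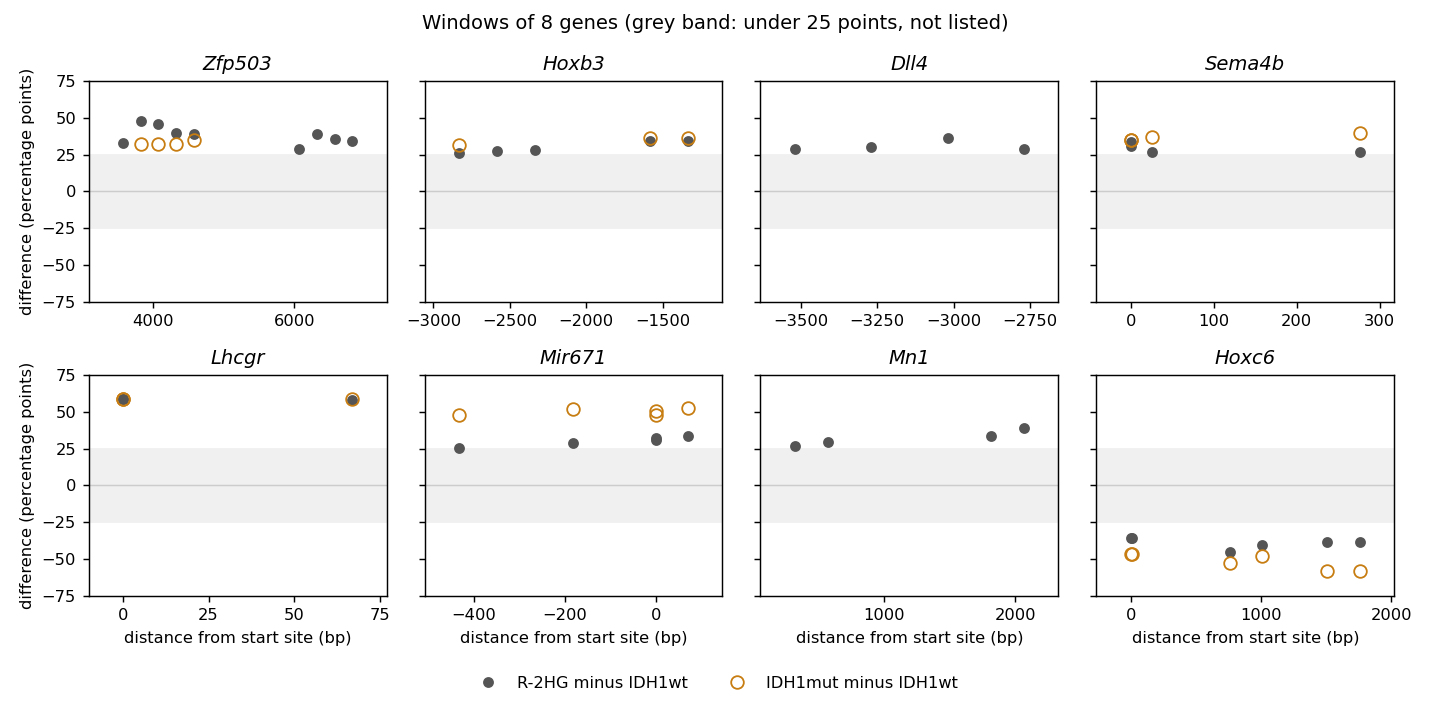
Methylation difference (percentage points) against distance from the start site (bp, a separate scale for each gene) for every listed window of 8 genes. Filled points are R-2HG minus IDH1wt and open points IDH1mut minus IDH1wt at the same windows where listed; Dll4 and Mn1 have filled points only, and Hoxc6 is the 1 gene below 0.

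Near start sites, 42 genes had a promoter gain and 26 a promoter loss. A window covered the start of 28 genes, 20 with gains and 8 with losses. The largest promoter gains were at Ubb, which encodes polyubiquitin, with 49.5 and 61.2 points per the authors' deposited table, and at Lhcgr, the receptor for luteinising hormone. Of its 3 windows, 2 covered the start and 1 lay at 67 bp, and they gained 58.0 to 58.9 points per the authors' deposited table (chromosome 17, 89190751 to 89191750). Lrrc4, a synaptic adhesion gene, gained 51.5 points in 2 windows with the same value, at -1505 and -1755 bp per the authors' deposited table. Alox5, the 5-lipoxygenase of myeloid cells that starts leukotriene synthesis, gained 37.2 points in both windows over its start per the authors' deposited table (chromosome 6, 116410751 to 116411500). Mab21l2, an eye and midbrain development gene, gained 36.7 points at 206 bp per the authors' deposited table. Fah, the last enzyme of tyrosine breakdown, gained 27.8, 31.4 and 34.1 points from the start to 203 bp per the authors' deposited table (chromosome 7, 91753751 to 91754750). Gpx7, a glutathione peroxidase of the endoplasmic reticulum, gained 33.0 points over its start per the authors' deposited table. Reads of Ubb, and of the gene copies Hmga2-ps1, Gm1821, H2afy3 and Msl3l2, may be shared with near-identical sequences, which was not tested.

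The largest promoter losses were mostly at genes with 1 or 2 listed windows, which is common: of 452 genes, 223 had 1 window and 188 had 2. Hoxc6, with 6 windows, was also among the largest promoter losses. Several of the largest promoter gains were at genes with few windows too. Ubb, Lrrc4 and Alox5 had 2 each, while Lhcgr and Fah had 3 and Hoxb3 and Mir671 had 5. The clone genes 1700024P04Rik and D230030E09Rik had -44.6 and -42.5 points per the authors' deposited table, the latter with a q of 0.00644. Racgap1, a GTPase activator of cell division, had -39.5 points at -1915 bp per the authors' deposited table, and Zfp385b, a zinc finger gene, -37.0 points at -629 bp. Cdkn1c, an imprinted inhibitor of the cell cycle, had -33.8 points over its start and -36.7 points at -47 bp per the authors' deposited table (chromosome 7, 150646751 to 150647500). Cox7c, a subunit of cytochrome c oxidase, had -33.9 points over its start and -36.5 points at 151 bp per the authors' deposited table (chromosome 13, 86185751 to 86186500). Hccs, which attaches haem to cytochrome c, had -36.5 points per the authors' deposited table with a q of 0.009. Egf, the epidermal growth factor gene, had -34.0 points at 491 bp and Dcp1b, an mRNA decapping factor, -33.5 points at -21 bp per the authors' deposited table. Gpx3, the plasma glutathione peroxidase, had -33.0 points at 147 bp per the authors' deposited table, opposite in sign to its relative Gpx7; both were picked after their values were seen.

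**Figure D4:**
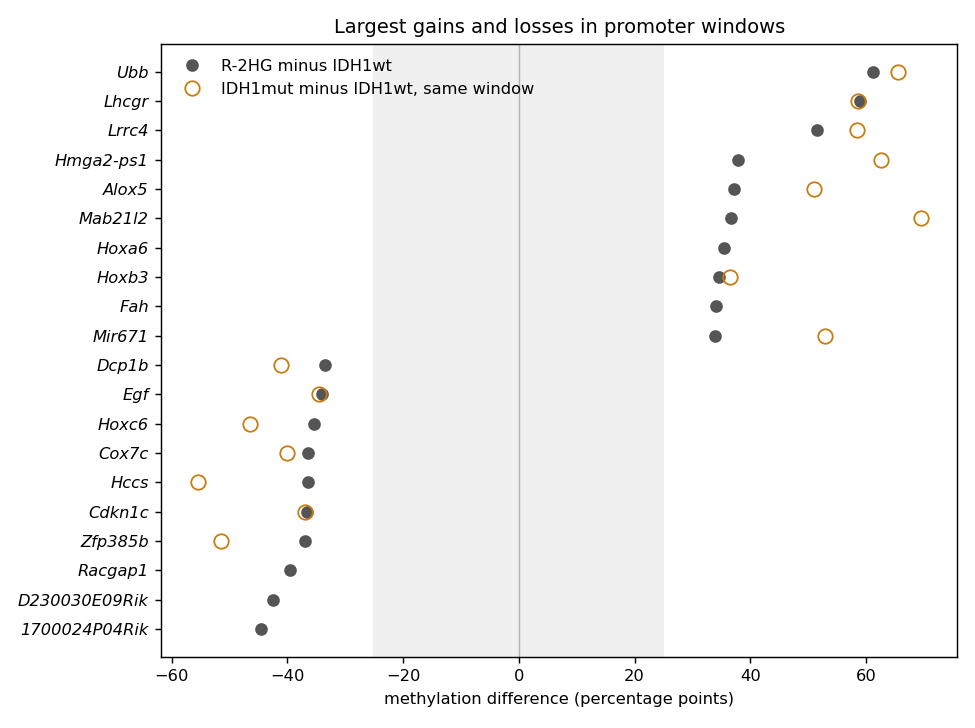
Largest promoter difference (horizontal axis, percentage points) of the 10 genes with the largest gains and the 10 with the largest losses. Filled points are R-2HG minus IDH1wt and open points IDH1mut minus IDH1wt at the same window where listed; the filled points of Ubb and Lhcgr lie farthest right, and the grey band marks values under 25 points.

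Each window was assigned to the nearest start site at any distance, so a gene symbol names a neighbour. Over all 452 genes 64.4% had gains only, 34.5% losses only and 1.11%, or 5 genes, windows in both directions. Of the 27 gene lists other than predicted genes, members were listed for 106 genes, 75 with gains only, 30 with losses only and 1 with both. Shares of a list read against these figures are counts, with no test behind them. The lists are not complete, so a count holds for the members of a list and not for every gene of that kind.

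Among Hox cluster genes, which pattern the body axis and act in blood progenitors, 7 of 45 were listed, 6 with gains and 1, Hoxc6, with losses. The HoxA genes formed a string of gains on chromosome 6 from 52125251 to 52262750, in the order Hoxa2, Hoxa5, Hoxa6 and Evx1, the homeobox gene at the cluster's end. In the authors' deposited table Hoxa2 had 28.1 and 37.6 points at -10422 and -11172 bp, and Hoxa5 26.8 points over its start. Hoxa6 had 35.2 and 35.5 points at its start and Evx1 32.5 points at -742 bp per the authors' deposited table. In the HoxB cluster, Hoxb5 gained 26.5 points at 1427 bp per the authors' deposited table, beside the run at Hoxb3. All 7 had a window within 50000 bp and 5 a promoter window. Hoxa9 was not listed, and neither were Idh1, Tet2 and Dnmt3a.

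Of the 126 genes on the list of other homeobox genes 11 were listed, 6 with gains, 4 with losses and 1 with both. None of the 11 had a promoter window. Genes with gains included Barhl1, Gbx2, Nkx6-1, Pou3f1 and Six2, with 25.4 to 33.0 points per the authors' deposited table. Losses were at Dlx4, Irx1, Irx3 and Isl1, genes of limb, craniofacial, heart and motor neuron development. Isl1 had -27.6 and -27.7 points from -104606 bp, and Irx1 -25.6 points in 2 windows with 1 value from -65331 bp, per the authors' deposited table. Uncx, a gene of somites and kidney, had losses of -28.3 and -27.3 points at 36151 and 36401 bp and gains of 25.1 points at 95151 and 95401 bp per the authors' deposited table. Only 6 of the 11 had a window within 50000 bp. The list is not complete: the homeobox genes Lbx2, Dmbx1, Hopx and Tgif2lx2 are outside it and had gains.

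The list of other developmental transcription factors has 111 members and also takes in Mab21l2, a development gene not counted as a transcription factor elsewhere. Of these 7 were listed, 3 with gains (Mab21l2, Sox9 and Zfp503) and 4 with losses. Outside the list, the factors Mesp2, Myog and Sox13 had gains and Dmrtb1 and Klf17 losses. Neurod2, a neuronal factor, had -25.9 points over its start and Ski, a repressor of TGF-beta signalling, -26.5 and -32.4 points at 7395 and 7145 bp per the authors' deposited table. Tbx3, a T-box repressor, and Hand1, a heart and placenta factor, had -26.7 and -25.05 points upstream per the authors' deposited table. Sox9, a factor of cartilage and testis, had 33.5 and 28.3 points, but at 207729 and 207979 bp, per the authors' deposited table.

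Of the 490 zinc finger genes named Zfp, Zbtb, Zscan or Zkscan, 15 were listed, 9 with gains and 6 with losses. Their 23 gained windows had a median of 34.4 points and their 9 lost windows -31.7, and Zfp503 held 9 of the gained ones. Besides Zfp503, Zfp341 gained 38.7 points at 1399 bp and Zfp800 26.5 to 38.4 points from 45352 bp per the authors' deposited table. Zfp213 had the largest losses of the group, -41.5 and -42.8 points at 40694 and 40444 bp per the authors' deposited table.

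The 8 listed genes of 179 in the Polycomb, Trithorax and histone modifier list all had gains, in 13 windows with a median of 27.2 points. Over all 452 genes, 64.4% had gains only, and the 8 depend on what the list takes in. Cbx8, a subunit of Polycomb complex 1 that binds methylated histone H3, gained 36.5 and 36.6 points at 3478 and 3228 bp per the authors' deposited table (chromosome 11, 118898251 to 118899000). Asxl3, a partner of the histone H2A deubiquitinase, had 36.3 points at 67163 bp and Brd7, a bromodomain subunit of chromatin remodellers, 27.6 and 30.6 points from -14662 bp per the authors' deposited table. Nsd1, a histone H3K36 methyltransferase, had 25.3 points at 1110 bp per the authors' deposited table. Kdm6b, the H3K27 demethylase that itself uses 2-oxoglutarate, had 25.3 points at -7825 bp per the authors' deposited table. Prdm6, Prdm8 and Prdm16 of the PR domain family had 25.4 to 27.2 points per the authors' deposited table. None of the 8 had a promoter window, and 7 had one within 50000 bp. Outside the list, the related gene L3mbtl4 had a loss of -25.2 points at 116 bp per the authors' deposited table. The chromatin gene Cecr2 had a loss of -25.3 points at -13439 bp, while Rybp and L3mbtl1 had gains. So not every gene of this kind gained. Of the 56 dioxygenases that use 2-oxoglutarate other than TET, Kdm6b was the 1 listed.

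In signalling, ligands and receptors were listed on both sides. Of 71 TGF-beta and BMP genes 3 had gains and 3 losses. Among ligands, Amh, the anti-Müllerian hormone, gained 28.8 points at 3010 bp, while Bmp8b and Gdf3 had -25.4 and -27.0 points at 95 bp and over the start per the authors' deposited table. Nog, which traps BMP ligands, gained 32.0 points at -37629 bp and the matrix protein gene Ltbp2 26.4 and 27.0 points upstream per the authors' deposited table. Smad3, which carries TGF-beta signals to the nucleus, had -26.1 points at 2552 bp per the authors' deposited table. Of 74 Wnt genes, the ligand Wnt5a and its receptor Ror2 had losses and the receptor Fzd1 a gain. Ror2 had -28.4 points at 110479 bp per the authors' deposited table. Of 37 Notch genes Dll4 was the 1 listed.

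Of 175 genes of FGF, MAPK and growth factor receptor signalling, 5 were listed. The gains were at 3 phosphatases that switch off MAP kinases, beside 64.4% of all 452 genes with gains only. Dusp4 had 25.1 to 25.6 points in 3 windows from -2414 to -1914 bp, just inside the limit, Dusp9 25.3 points at 473 bp and Dusp6 29.8 and 29.9 points from -58615 bp per the authors' deposited table. The losses were at the ephrin ligand Efnb1 and the ephrin receptor Ephb2, with -29.4 points at 1034 bp and -27.7 points at 1351 bp per the authors' deposited table. Outside the list, Egf and the kinase gene Rps6ka3 had promoter losses and the receptor kinase gene Alk had gains. Of 46 tumour suppressors and cell cycle inhibitors, Hic1 and Dusp6 had gains and Cdkn1c and Dlc1 losses. Hic1, a repressor often silenced in cancer, gained 25.6, 28.4 and 27.5 points at 905, 1155 and 1905 bp per the authors' deposited table. Cdkn1c was also the 1 listed gene of the 59 on the list of imprinted genes. That list leaves out the imprinted gene Slc22a3, which had gains at its start.

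Genes of blood identity were listed in 3 of the 4 lists for them. Of 41 stem and progenitor regulators Etv6, Hmga2 and Prdm16 had gains, and 1 of the 3 had a window within 50000 bp. Of the 41 lymphoid markers, Ebf1, a master factor of B cells, gained 41.6 points at 2867 bp and Zap70, a kinase of the T cell receptor, 29.0 points at 18797 and 19047 bp per the authors' deposited table. Of 27 erythroid and megakaryocyte markers the platelet integrin Itgb3 was listed, with 30.3 points at 206439 bp per the authors' deposited table. All listed genes of these 3 lists had gains, beside 64.4% of all 452 genes with gains only. Outside the lists, the lymphoid genes Slamf6 and Tcl1 had losses and Ptpn22 a gain, so not every gene of this kind gained. None of the 52 myeloid differentiation genes, 20 stromal and endothelial markers, 25 genes of DNA methylation and TET, or 41 genes of IDH and the citric acid cycle was listed. The myeloid list is not complete: Alox5 and Fpr2, genes of myeloid cells and neutrophils, are outside it and had gains. Differences in methylation give no level of a marker, so the sorted cell type could not be checked here.

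Among receptors and transporters, all 4 listed olfactory and vomeronasal receptors of 2092 had gains, beside 64.4% of all 452 genes with gains only. Vmn1r52 and Vmn1r14, pheromone receptors, had 62.0 points from 6293 bp and 50.7 points from -3183 bp per the authors' deposited table. Olfr77 had 4 gains of 34.5 to 40.0 points from -15923 to -10923 bp per the authors' deposited table. These genes have many similar copies, and reads may be shared among them. Of 261 genes on the list of other G protein-coupled receptors 5 had gains and 1, the opioid receptor Oprd1, a loss. Outside that list, the receptor genes Nmur2, Bdkrb2 and Gabbr1 had gains and Lphn3 a loss. Fpr2, a formyl peptide receptor of neutrophils, had 35.2 points at 24715 bp per the authors' deposited table. The leukotriene B4 receptors Ltb4r1 and Ltb4r2, neighbours on chromosome 14, had gains. Ltb4r1 had 26.4 to 28.8 points between 1454 and 1954 bp, and Ltb4r2 had 29.0 points at 238 bp, per the authors' deposited table. Of 274 genes on the ion channel list 4 had gains and 1 a loss, at the potassium channel Kcnj14 with -44.7 points per the authors' deposited table. The channel genes Hvcn1 and Catsper1, outside that list, also had losses. Of 399 solute carriers 4 had gains and 1, Slc4a8, a loss. Of the smaller lists, the cadherin Cdh8 had 3 gains and 3 genes of small GTPase regulation had 2 gains and 1 loss by gene. Among such regulators outside the list, Rapgef1 and Arap3 had gains and Racgap1 losses. Slc22a3, an organic cation transporter, gained 25.9 and 28.03 points at its start per the authors' deposited table.

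**Figure D5:**
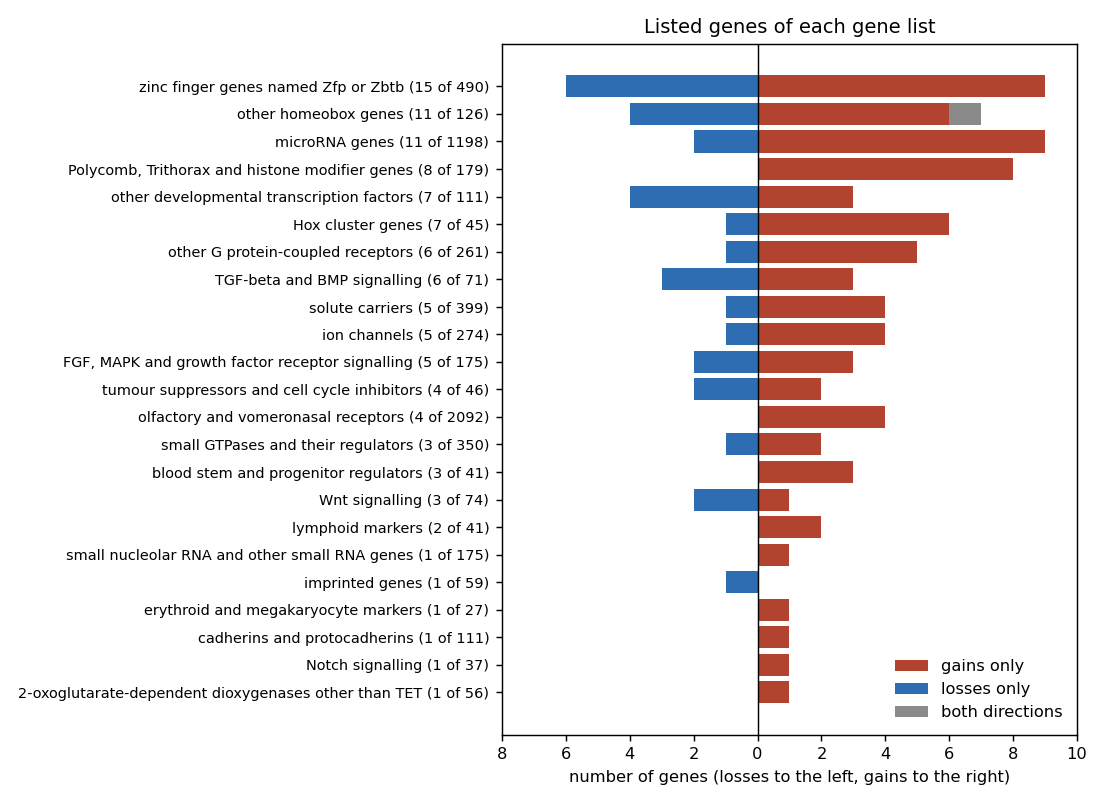
Number of listed genes in each gene list with gains only (red, to the right), losses only (blue, to the left) or both (grey); brackets give the listed genes and the size of the list. Zinc finger genes have bars on both sides, while the 8 histone modifier genes lie on the right.

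Of the 1198 microRNA genes 11 were listed, 9 with gains and 2, Mir138-1 and Mir5126, with losses. Over all 452 genes 64.4% had gains only. A microRNA pairs with its target mRNAs through its seed, bases 2 to 8. The mature sequences from RefSeq are shown for Mir671, the microRNA gene with most windows, and for Mir196a-1, which lies in the HoxB cluster and whose product pairs with Hox mRNAs, with the seed in capitals.
mmu-miR-671-5p: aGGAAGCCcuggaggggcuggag
mmu-miR-671-3p: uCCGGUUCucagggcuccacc
mmu-miR-196a-5p: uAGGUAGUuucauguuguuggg
mmu-miR-196a-1-3p: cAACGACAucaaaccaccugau
The 4 seeds differ, so these arms share no seed family. Mir196a-1 had 1 gain of 27.0 points at -1228 bp per the authors' deposited table (chromosome 11, 96124751 to 96125250). Mir688, Mir5103 and Mir5126 also had promoter windows, of 28.3 to 28.6, 25.7 and -29.6 points per the authors' deposited table. Windows nearest to a noncoding transcript numbered 111, near 69 genes, and 73.9% were gains, beside 68.0% over all 750 windows. The difference was not tested.

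Large differences were also listed away from promoters. Snx6, a sorting nexin of endosomes, had the largest loss, -61.9 points in 2 windows with 1 value per the authors' deposited table. Elmo1, which drives the engulfment of dying cells, had 57.7 and 57.4 points at -94626 and -94376 bp per the authors' deposited table. Mtss1, which binds actin and membranes, had 52.7 points at 3582 bp and Fam171a2 -52.8 and -52.5 points from -8025 bp per the authors' deposited table. The clone genes A330009N23Rik, B020004J07Rik and 1700030C10Rik had -55.7, -55.3 and -52.2 points per the authors' deposited table. Wipi1, an autophagy gene, had -49.2 points with a q of 0.0079 per the authors' deposited table. Nol7, a nucleolar protein gene, gained 50 points at 508 bp, just outside the promoter limit, with a q of 0.00336 per the authors' deposited table.

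Besides Uncx, windows in both directions were listed for Dsel, Pink1, Rbfox1 and Ttll7, and in each the directions lay in separate regions. Dsel, an epimerase of dermatan sulfate chains, had losses of -27.8 and -39.9 points at 110246 and 109996 bp and 5 gains of 31.4 to 42.9 points from -699007 to -704257 bp per the authors' deposited table. At Pink1, a mitochondrial kinase, -28.6 points at -3791 bp and 25.98 points at -12291 bp were opposite in sign per the authors' deposited table. Within 50000 bp of the start, Pink1 was the 1 gene left with both directions.

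Over chromosomes, windows ranged from 18 on chromosome 3 to 65 on chromosomes 4 and 5. Gains made up 33 of 35 windows on chromosome 14 and 30 of 34 on chromosome 10, but 15 of 34 on chromosome 13 and 8 of 21 on chromosome 19. Over all windows the share was 68.0%. These chromosomes were picked as the highest and lowest after their values were seen, and no test was made. Windows overlap, and chromosomes 10, 13 and 19 hold 22, 21 and 14 regions. Chromosome 14 holds 17 regions, 2 of them the Zfp503 runs with 9 windows. The X chromosome had 19 gains in 27 windows.

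Values of the same windows in the other tables stand beside these, with the caution that IDH1mut against IDH1wt shares the IDH1wt libraries and R-2HG against IDH1mut the R-2HG libraries. At the 3 Lhcgr windows IDH1mut differed from IDH1wt by 58.6 to 58.8 points, beside 58.0 to 58.9 points for R-2HG, by the authors' deposited table for each comparison. At the Hoxc6 windows it was -46.5 to -58.1 points, at Mir671 47.8 to 52.9 and at Alox5 51.0, larger in size than in R-2HG at each of these windows per the authors' deposited table. At Cbx8 it was 55.6 and 55.8 points, and at the Mab21l2 window 69.6 points, per the authors' deposited table. There R-2HG against IDH1mut had -32.8 points, so the R-2HG cells lay between the other groups. At Zfp503 the order was the other way: 4 windows had 32.3 to 35.0 points for IDH1mut, beside 38.8 to 47.8 points for R-2HG per the authors' deposited table. At Mn1, IDH1mut was not listed against IDH1wt, and 2 of the 4 windows were higher in R-2HG than in IDH1mut, by 27.96 and 32.1 points per the authors' deposited table. The Dll4, Hoxa6, Evx1 and Fah windows were listed for R-2HG against IDH1wt and in neither of the other tables, which does not show that IDH1mut was unchanged there.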

How the data were processed

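RRBS was done on 6 libraries in 3 groups of 2, and the 4 libraries of R-2HG and IDH1wt bear on this comparison. Per the labels, DNA was cut with MspI, bisulfite converted and sequenced with 1 library to a lane. The submitters' processing notes name mm9 as the build and, as tools, methylKit 0.9.1, BSMAP and Trim Galore. Neither settings nor the test used are given in the sources here. The authors deposited a p-value and a q-value for each window, and a methylation difference, a signed score in percentage points. Distances in bp to the nearest start site are the authors' deposited values too. Whether p and q cover the spread between libraries is unknown.

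With Python 3.11.15 and pandas 2.3.3, repeated rows were removed, windows joined into regions and counted by direction, distance and gene list. No own test was made, since the table holds called windows only. For signs, the 3 differences of 3 groups must add up. Reversing this table gave a residual of 0 at the 3 windows in all tables, and 0 of 705 windows in 2 tables had a remaining difference of 25 points or more. The other orders gave 320 to 633. Read as they stand, the other tables are IDH1mut minus IDH1wt and R-2HG minus IDH1mut. On simulated data 4 of 4 sign orders and 300 of 300 regions were recovered. These orders all keep the sign of the table of IDH1mut against IDH1wt, so their recovery cannot test a reversal of all 3 tables together. The recovered regions show only that the joining rule ran as set. In all 248 neighbouring pairs on one side of a start, distance rose downstream, so negative means upstream. The numbering of windows lacks 2 numbers, which are not analysed here. Of 454 transcripts 450 matched RefSeq genes (GRCm38.p6), used for names and promoter sequences. Sizes of lists defined by a name pattern count RefSeq symbols. The members and lists were chosen with earlier results of these data known. Named genes are the 15 with most windows, those of the 10 largest gains and losses overall and in promoters, list members, genes of regions with 3 or more windows, genes with both directions, and Idh1, Hoxa9, Tet2 and Dnmt3a. Of those, the text gives the ones it turns on, and 1 gene is not reported here.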

Additional observations from a re-analysis of the deposited data

How the results depend on the processing

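The share of gains was 68.0% (95% Clopper-Pearson interval 64.5 to 71.3, counting windows as if independent). The windows overlap and rest on the same 4 libraries, so this interval does not measure the spread between libraries or mice. At 30 points or more 237 gains and 103 losses were left, and at 40 points or more 50 and 25. With a p of 0 only, 125 losses were left and the share was 75.7%. Regions joined within 500, 1000 and 5000 bp gave 313, 310 and 304 gains. Under the opposite sign reading there were 240 gains and 510 losses, a share of 32.0%. With promoters taken from -5000 to 5000 bp, 215 windows were in promoters and 149 downstream. Counted as regions, 146 lay downstream, 109 upstream and 147 distal. At 30 points or more gains made up 51.4% of upstream and 85.5% of distal windows. In promoters alone 24 of the 106 list genes were left, and within 50000 bp 1 gene had both directions. Counting equal neighbours once and leaving out gene copies were chosen after seeing the data. The causes were not tested, other than fewer windows or genes being counted. No paired analysis was possible because the table holds 1 difference per window and no value per library, and no library could be left out. Depth per window is unknown.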

Other observations

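Several genes that handle leukotriene B4, a lipid that draws neutrophils, were listed; they were picked after their values were seen. All 7 had gains, beside 64.4% of the 452 genes with gains only; since they were picked so, and Ltb4r1 and Ltb4r2 are neighbours and Cyp4f14 and Cyp4f15 paralogues, the count is no result about the pathway. Alox5, which starts the synthesis, gained 37.2 points over its start per the authors' deposited table. Alox5ap, the protein that presents arachidonic acid to 5-lipoxygenase, had 31.0 points at 50869 bp, and Lta4h, the hydrolase that makes leukotriene B4, 27.998 points at -21891 bp per the authors' deposited table. The receptor genes Ltb4r1 and Ltb4r2 had 26.4 to 29.0 points per the authors' deposited table. Cyp4f14 and Cyp4f15, members of the cytochrome P450 family 4F that oxidises such lipids, had 36.8 and 40.1 points from -7215 bp and 39.6 and 42.3 points from -8854 bp per the authors' deposited table. Against IDH1wt, IDH1mut was listed at the Alox5 windows, with 51.0 points, and at none of the other 6 genes' windows. At Ltb4r1, R-2HG was higher than IDH1mut by 44.6 to 47.8 points per the authors' deposited table. Only Alox5 and Ltb4r2 of the 7 had a promoter window, and no test of the set was made.

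Of 52 windows over 250000 bp from the nearest start, a limit set after seeing the values, 49 were gains and 3 losses, beside 68.0% gains over all windows. The windows overlap, and they made 35 regions near 32 genes, with 32 regions gained beside 66.0% of all 470. The receptor genes Lifr and Osmr of the interleukin 6 family, both on chromosome 15, had gains of 35.6 points at 64711 bp and 32.9 points at -32689 bp per the authors' deposited table. Among genes related to Polycomb outside the lists, Rybp, a partner of Polycomb complex 1, had gains of 32.4 and 33.8 points from 161603 bp per the authors' deposited table. L3mbtl1, which binds methylated histones, had gains of 28.3 points from 4802 bp, and its relative L3mbtl4 a loss of -25.2 points at 116 bp, per the authors' deposited table. Of 6 genes known from leukaemia, 4 had gains (Mn1, Etv6, Nsd1 and Prdm16) and 2 losses, beside 64.4% of all 452 genes with gains only. The losses were at Mllt1, -33.3 points in 2 windows from -2941 bp, and at Tcl1, -38.4 and -35.9 points from -54805 bp, per the authors' deposited table. These genes were also chosen after their values were seen and are not all genes of their kind, so the counts are no result about such genes.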
